A study of Caenorhabditis elegans with 21 samples.

Results

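The comparison set 200 µM fluphenazine against starvation for 15 h in whole Caenorhabditis elegans. It rests on 6 of the 21 RNA-seq libraries of a study of stress in this nematode. Members are the 3 fluphenazine libraries (replicates 2, 4 and 9) and the 3 starvation libraries (replicates 1, 2 and 3), chosen by their labels. All worms were wild type of strain N2, synchronized and fed E. coli OP50 at 20 °C until day 1 of adulthood. The fluphenazine worms were moved at the L4 larval stage to plates with the drug and collected the next day. The starved worms were put on plates without food 15 h before collection. The 3 untreated control libraries (replicates 4, 6 and 7) are shown beside them as the level in fed worms; no group with the drug's vehicle alone is named in the labels. The labels do not tell separate cultures from repeat preparations. The p-values measure the spread between libraries within groups, pooled over all 21 libraries, which may be technical.

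Fluphenazine is a phenothiazine antipsychotic that blocks dopamine receptors and also binds calmodulin. Worms meet such foreign compounds mainly in the intestine. There cytochrome P450 enzymes oxidize them, UDP-glucuronosyltransferases and glutathione S-transferases attach soluble groups, and ABC transporters pump the products out of the cell. Fasting worms instead draw on stored fat: lysosomal lipases release fatty acids, acyl-CoA synthetases activate them for oxidation, and desaturase levels change, under factors such as NHR-49, HLH-30 and DAF-16. Intestinal defence genes, many of them under the p38 kinase PMK-1, respond to both food bacteria and toxins.

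Levels are FPKM, sequenced fragments corrected for transcript length and for library size. Differences are log2(FPKM + 1) in fluphenazine minus starvation, so a positive value is higher in fluphenazine, and the added constant understates the change of low genes. Each is given with its standard error and with limma's adjusted p over all 17492 genes that reached 1 FPKM in at least 3 of the 21 libraries. A gene was called at an adjusted p under 0.05. FPKM values do not give absolute depth; from the step between low values, the relative depth of the 6 libraries ran from 0.966 (fluphenazine 4) to 1.17 (starvation 1) times that of control 4.

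Both groups held a library that stood apart. Across genes, fluphenazine 4 had a mean r of 0.891 with the other drug libraries and of 0.932 with the controls. Starvation 3 had a mean r of 0.843 with the other starved libraries, the lowest of the 6, while the remaining 4 had r from 0.899 to 0.941 with their own groups. All 3 starved libraries had a slightly higher mean r with the fluphenazine libraries (0.865 to 0.925) than with each other. Results are therefore given with and without these libraries where that matters. Control 7 also differed from controls 4 and 6, with a mean r of 0.908 with the fluphenazine libraries against 0.855 and 0.859. The fed level is thus a range, wide for some lists. In whole-worm RNA, fewer cells of a type and less RNA per cell cannot be told apart.

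Of the 17492 genes tested, 1101 (6.29%) were called: 533 (3.05%) were higher in fluphenazine and 568 (3.25%) lower. The median difference over all genes was 0.02, and 532 of the calls were at least 2-fold. By limma, 3260 of the 17492 genes had an unadjusted p under 0.05, both directions together. That is the background for the unadjusted counts of the lists below. With quantile normalization 36.2% of the calls were higher, against 48.4% here, so the balance between directions depends on the scaling. Leaving out fluphenazine 4 gave 1229 calls (7.03%; 4.13% higher and 2.9% lower) and leaving out starvation 3 gave 1544 (8.83%; 5.31% higher and 3.52% lower). Leaving out both gave 3187 (18.2%; 13.4% higher and 4.81% lower). Leaving out starvation 2 or fluphenazine 2 gave 864 and 831. A call held its direction in all 6 fits that left out 1 library for 635 genes. A fit of only the 6 libraries called 98 genes (0.56%), 75 of them higher, so most single calls below depend on the spread shared with the other 5 groups.

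**Figure D1:**
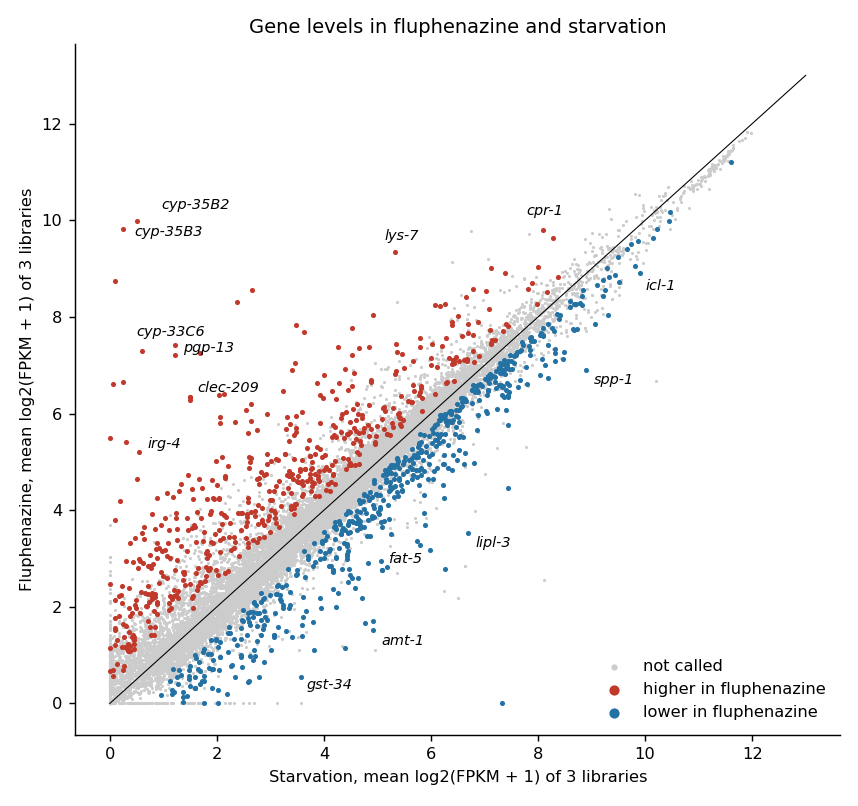
Mean log2(FPKM + 1) of each of the 17492 genes in the 3 starvation libraries (horizontal) and the 3 fluphenazine libraries (vertical), with the 533 genes called higher in fluphenazine in red, the 568 called lower in blue and the line of equality. The 2 genes farthest above the line are the cytochrome P450 genes cyp-35B3 and cyp-35B2, which were near 0 in starvation.

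**Figure D2:**
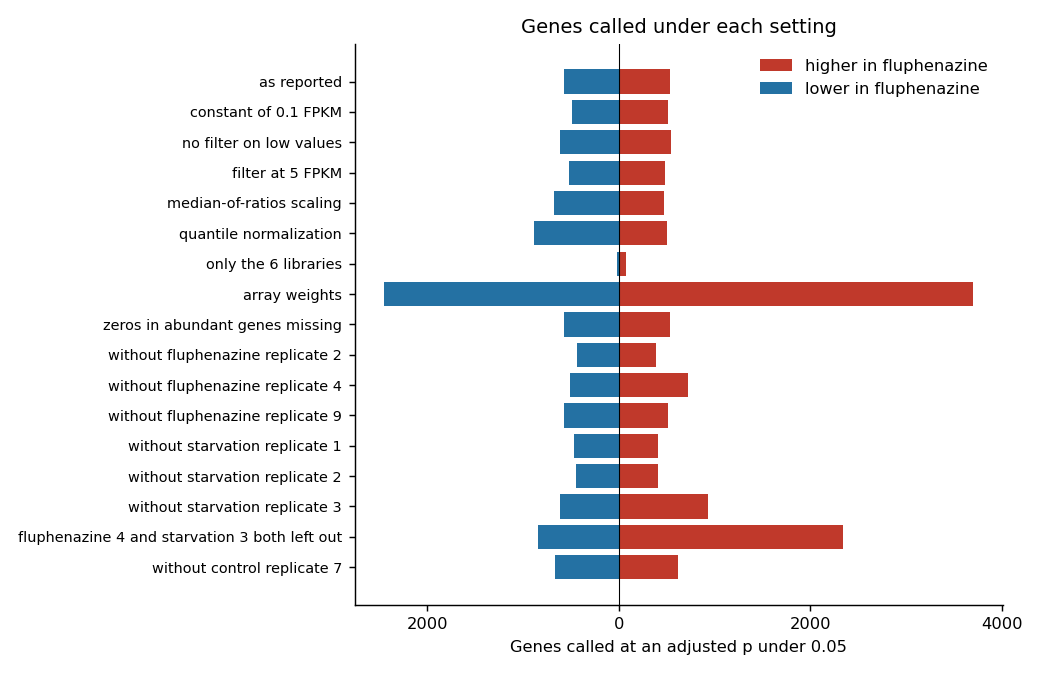
Number of genes called higher (red, right) and lower (blue, left) in fluphenazine than in starvation as reported and under each of 16 other settings. The count runs from 98 when only the 6 libraries are fitted to 6151 with a weight for each library.

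Drug metabolism genes had the 2 largest differences and several of those after them. cyp-35B3 (WBGene00019470), a cytochrome P450 of the family known for its response to foreign compounds, stood at 1008, 743 and 991 FPKM in fluphenazine 2, 4 and 9. In starvation 1, 2 and 3 it stood at 0.325, 0.103 and 0.147 FPKM, and in the controls at 0.158 to 0.274. The gene was thus abundant in every drug library and close to 0 in every starved and fed one (9.58 ± 0.14, limma adjusted p = 2.55e-17). Its neighbour cyp-35B2 was at 1038, 959 and 1022 FPKM against 0.444, 0.296 and 0.561 (9.46 ± 0.11). cyp-33C6 reached 180, 122.9 and 174 FPKM against 0.354, 0.506 and 0.693 (6.71 ± 0.16). cyp-35A1 was at 143, 48 and 133 FPKM against 0.05, 0.0555 and 0 (6.57 ± 0.27), and cyp-35B1 at 195, 120 and 209.2 against 0.687, 0.764 and 3.28 (6.19 ± 0.28). Fluphenazine 4 was the lowest drug library for all 5 genes, and no starved library came near it. All 5 were also called in the fit of the 6 libraries alone. The cyp-35 genes are close copies, so the counting could have split reads among them.

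Of 66 cytochrome P450 genes tested, 18 were higher and 11 lower in fluphenazine (27.3% and 16.7%, against 3.05% and 3.25% of all genes), with a median of 0.22 against 0.02 over all genes. Without fluphenazine 4 the counts were 17 and 8, without starvation 3 they were 23 and 10, and without both 28 and 10. Of all genes, 4.13%, 5.31% and 13.4% were higher in these fits, and 2.9%, 3.52% and 4.81% lower. Among the lower members, cyp-14A1 was at 1.41, 1.03 and 1.01 FPKM in fluphenazine and 6.53, 5.89 and 8.92 in starvation (−1.90 ± 0.23). Its controls were at 4.14 to 6.91. cyp-25A1 likewise lay at 1.3 to 1.97 FPKM in fluphenazine, below 5.83 to 9.11 in starvation and 4.17 to 11.8 in controls (−1.69 ± 0.31).

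Conjugating enzymes were divided. UDP-glucuronosyltransferases had 17 higher and 6 lower members of 64 tested (26.6% and 9.38%, against 3.05% and 3.25% of all genes), with a median of 0.32. ugt-36 was at 22.9, 15.8 and 25.9 FPKM against 2.63, 1.92 and 2.32, and at most 0.734 FPKM in the controls (2.75 ± 0.21, limma adjusted p = 4.4e-07). ugt-41 differed as much (3.005 ± 0.40) from a different fed level: fluphenazine at 14.9 to 60.2 FPKM covered the controls at 20.1 to 29.8, while starvation lay below both at 2.45 to 3.77. ugt-17 ran the other way, with 24.5, 14.3 and 29.4 FPKM against 47.3, 54.5 and 59.2 (−1.25 ± 0.24).

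Glutathione S-transferases had 9 higher and 8 lower members of 49 (18.4% and 16.3%, against 3.05% and 3.25% of all genes). Their median was −0.02. Without fluphenazine 4 the counts were 6 and 8, where 4.13% of all genes were higher and 2.9% lower. gst-5 stood at 176, 210 and 141 FPKM in fluphenazine against 57.1, 73.3 and 60.9 in starvation (1.44 ± 0.19). gst-34 stood at 0.271, 0.155 and 1.16 FPKM against 11.4, 14.2 and 7.82, with controls in between at 2.83 to 4.24 (−3.01 ± 0.28). gst-4, a widely used reporter of the oxidative stress factor SKN-1, was not called (−0.35, 95% interval −0.69 to −0.02, adjusted p = 0.238), and its 6 values of 19.4 to 39.1 FPKM all lay below the controls at 65.2 to 69.3. Short-chain dehydrogenases, which reduce steroids, retinoids and other lipids, had 2 higher and 8 lower members of 30. These were 6.67% and 26.7%, against 3.05% and 3.25% of all genes. Among the dehydrogenases dhs-15 was lower (−2.04 ± 0.20) and dhs-23 higher (3.09 ± 0.42).

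Drug export showed 7 higher and 3 lower members of 53 ABC transporters (13.2% and 5.66%, against 3.05% and 3.25% of all genes). pgp-13, a P-glycoprotein, stood at 182.3, 96.6 and 185 FPKM in fluphenazine and 1.21, 1.56 and 1.26 in starvation, with controls at 1.02 to 1.32 (5.997 ± 0.19, limma adjusted p = 2.68e-12). pgp-3 was at 28.3, 17.9 and 28.4 FPKM against 6.28, 4.61 and 7.05 (1.88 ± 0.18), pgp-14 was higher by 1.78 ± 0.32 and mrp-2, a multidrug resistance protein, by 1.47 ± 0.20. None of the fluphenazine values of these 4 genes overlapped starvation, which was a condition for naming members of a list. The haem exporter gene mrp-5 was lower, at 54.1, 50.2 and 51.7 FPKM against 79.8, 76.5 and 110.3, both above controls at 24.8 to 29.5 (−0.74 ± 0.13). Of 191 nuclear hormone receptor genes, the family that holds many sensors of lipids and foreign compounds, 8 were higher and 6 lower, close to the share of all genes; nhr-112 (1.69 ± 0.27), nhr-237, nhr-142 and nhr-135 (1.12 ± 0.18) were higher, and nhr-116 (−1.03 ± 0.23) and nhr-117 (−0.80 ± 0.15) lower. Without starvation 3 the count was 18 higher and 5 lower (9.42% and 2.62%, against 5.31% and 3.52% of all genes), and without both libraries 35 and 5 (18.3% and 2.62%, against 13.4% and 4.81%).

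**Figure D3:**
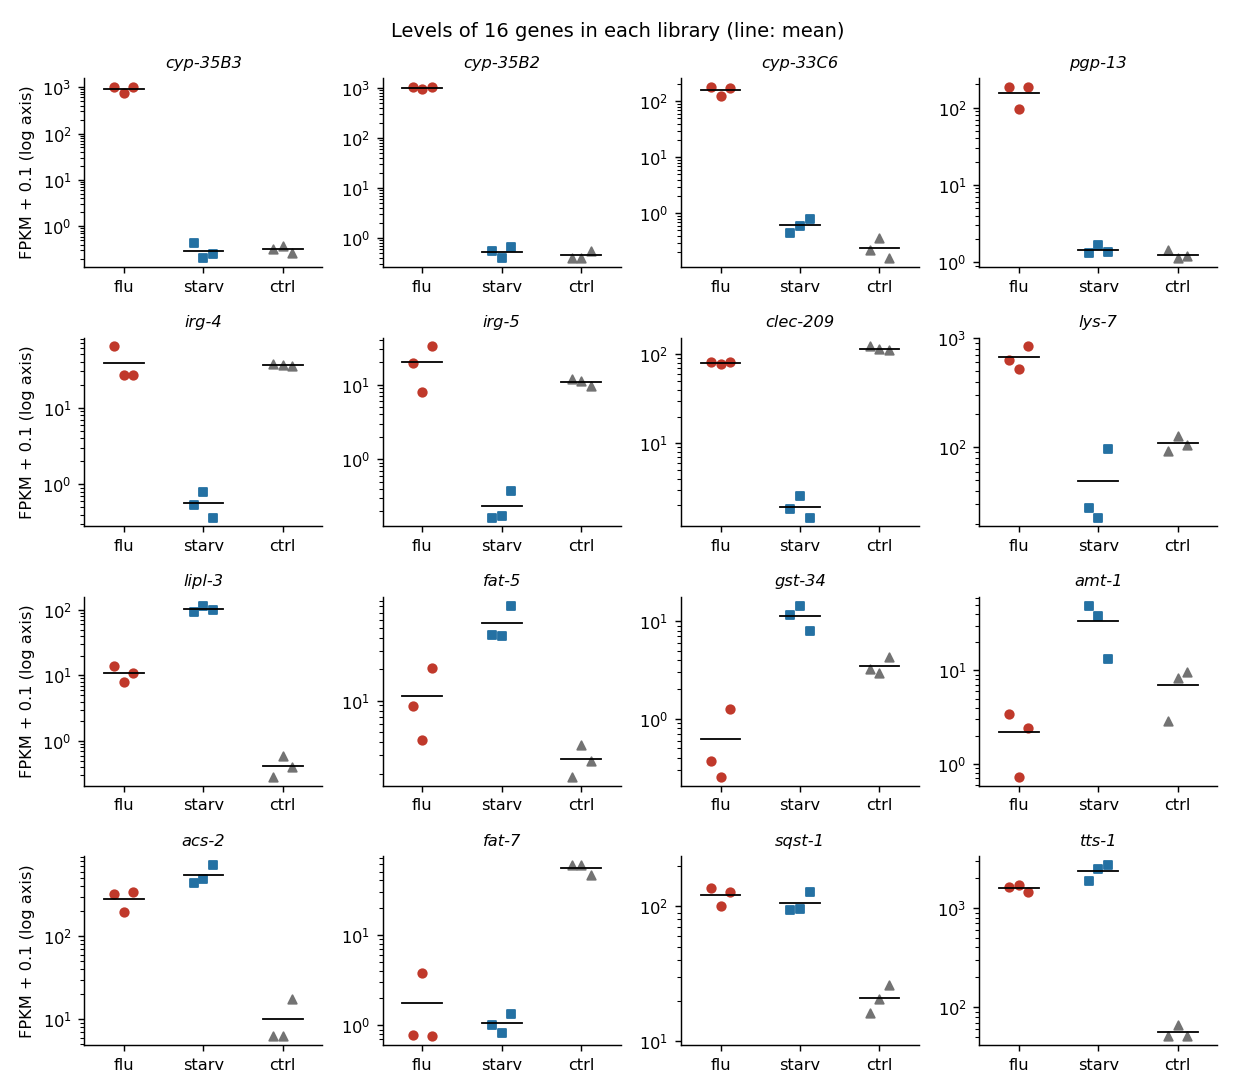
FPKM + 0.1 on a log axis for 16 genes in each library of fluphenazine (flu), starvation (starv) and the untreated controls (ctrl), with a line at the group mean. The first 4 genes are high only in the drug libraries; irg-4, irg-5 and clec-209 are at or near the fed level in fluphenazine and near 0 in starvation; acs-2, fat-7, sqst-1 and tts-1 sit away from the controls in both treatments.

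The fasting programme gave a mixed picture. Several of its best-known genes lay far from the fed level in both treatments and were not called between them, while other genes were highest in starvation. acs-2, an acyl-CoA synthetase induced by fasting through NHR-49, stood at 321, 194 and 337 FPKM in fluphenazine and 431, 487 and 718 in starvation, against 6.11 to 17.6 in controls. The 3 starved libraries were above the 3 drug libraries, but the difference was not called (−0.95, 95% interval −1.67 to −0.22, adjusted p = 0.131). fat-7, a stearoyl-CoA desaturase that falls with fasting, was at 0.691, 3.7 and 0.658 FPKM against 0.911, 0.723 and 1.23, with controls at 46.3 to 58.9 (0.28, interval −0.43 to 0.99). cyp-37B1, a fasting-responsive P450, was at 40.8 to 65.1 and 32.7 to 42.6 FPKM, with every control under 1 (0.52, interval 0.05 to 1.00). tts-1, a long non-coding RNA seen in long-lived insulin-receptor mutants, was at 1458 to 1720 FPKM in fluphenazine, 1861 to 2713 in starvation and 50.7 to 66.2 in controls (−0.54, interval −0.95 to −0.14). fmo-2, a flavin-containing monooxygenase, spread widely, at 33, 109.4 and 17.7 FPKM against 56.2, 128 and 53.2 (−0.84, interval −1.91 to 0.23); without fluphenazine 4 it was called lower, at −1.55 (adjusted p = 0.033). The intervals of these genes reach to between 0.95 and 1.91 log2 units on 1 side, so the treatments are not shown to be alike.

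Among the genes highest in starvation, lipl-3, a lysosomal lipase of fasting controlled by HLH-30, stood at 13.8, 7.9 and 10.9 FPKM in fluphenazine and 93.1, 116 and 98.7 in starvation. Its controls were at 0.182 to 0.484 FPKM, so both treatments lay above the fed level and starvation was 9.45 times fluphenazine in mean FPKM (−3.15 ± 0.16, limma adjusted p = 2.21e-09). The related lipase gene lipl-5 was not called, at 391.9, 451 and 394 FPKM against 340, 339 and 389 (0.21, interval −0.40 to 0.83). fil-1, a fasting-induced lipase, ran against the name of its group, at 17.1, 27.1 and 12.8 FPKM in fluphenazine and 3.44, 2.71 and 3.16 in starvation (2.23 ± 0.25). Over the 44 lipase and fatty acid activation genes tested, 4 were higher and 1 lower (9.09% and 2.27%). amt-1, an ammonium transporter gene, was also highest in starvation, at 3.29, 0.625 and 2.33 FPKM against 49, 37.7 and 13.3 (−3.41 ± 0.44); starvation 3 was the nearest to the drug libraries.

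Of 25 peroxisomal genes, 5 were lower and 0 higher (20% lower, against 3.25% of all genes), with a median of −0.34. The list holds catalase genes beside those of β-oxidation, so the share is not that of β-oxidation alone. At an unadjusted p under 0.05 the counts were 4 higher and 12 lower, and without fluphenazine 4 the called genes were 2 higher and 3 lower. In that fit 4.13% of all genes were higher and 2.9% lower. acox-1.1, an acyl-CoA oxidase, was at 30.3, 21.6 and 32.5 FPKM against 53, 50.7 and 43.1 (−0.79 ± 0.14). Among the other lower members were the catalase genes ctl-1 (−0.54 ± 0.10) and ctl-3 (−0.50 ± 0.09), which may share reads as near-identical neighbours. Their neighbour ctl-2, also a catalase gene, was called lower as well (−0.62 ± 0.15). In fluphenazine ctl-1 (52 to 60.4 FPKM) and ctl-3 (53.5 to 59.9) still lay above controls at 24.6 to 27.4 and 20.6 to 21.6. Mitochondrial β-oxidation had 2 higher and 2 lower of 33 (6.06% each), with ech-9, an enoyl-CoA hydratase gene, the largest at 8.94, 4.99 and 15.5 FPKM against 0.294, 0.187 and 0.443 (2.93 ± 0.26).

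Several genes of fat and sugar synthesis were lower in fluphenazine than in starvation. Of 20 desaturases and elongases, 4 were lower and 1 higher (20% and 5%, against 3.25% and 3.05% of all genes). fat-5, which desaturates palmitoyl-CoA, stood at 8.77, 4.11 and 20.3 FPKM against 42.9, 41.4 and 81.3, with controls at 1.76 to 3.65 (−2.39 ± 0.40). fat-3 (−0.79 ± 0.16), fat-1 (−0.76 ± 0.10) and elo-1 (−0.49 ± 0.08) make polyunsaturated fatty acids and were lower as well. icl-1, which encodes both enzymes special to the glyoxylate cycle, stood at 498, 477 and 459 FPKM against 837, 1065 and 995, with controls at 66.3 to 119.8 (−1.01 ± 0.20). The gluconeogenesis gene pck-2 was lower by less (−0.57 ± 0.12), with fluphenazine at 429 to 500 FPKM above controls at 376 to 420. tre-5, a trehalase, was higher at 19, 37.9 and 17.5 FPKM against 9.97, 8.29 and 5.97 (1.45 ± 0.32). Across the 39 genes of sugar metabolism the counts were 2 higher and 3 lower (5.13% and 7.69%).

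Among regulators, hlh-30 (the worm TFEB, which drives lysosome genes) was at 96.7, 94.7 and 109.9 FPKM against 136, 140.4 and 160.4, above controls at 38.1 to 46.6 in both (−0.53 ± 0.10, limma adjusted p = 0.00312). daf-16, which encodes the FOXO factor that insulin restrains, was at 121 to 130 FPKM against 134 to 172 and was not called (−0.26, interval −0.43 to −0.09, adjusted p = 0.0768). nhr-49 was not called either (−0.11, interval −0.29 to 0.07). sqst-1, an autophagy receptor, was at 136, 100 and 127 FPKM against 93.7, 95.4 and 129, with controls at 16 to 26.1 (0.20, interval −0.15 to 0.55). Of 67 autophagy and lysosome genes 4 were higher and 2 lower (5.97% and 2.99%, against 3.05% and 3.25% of all genes). Without fluphenazine 4 the count was 12 and 2, where 4.13% of all genes were higher and 2.9% lower. Without starvation 3 it was 9 and 1, where the shares of all genes were 5.31% and 3.52%. Median-of-ratios scaling gave 1 and 2.

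Some digestive proteases were higher. Of 32 cathepsin and aspartyl protease genes 5 were higher and limma called 0 lower (15.6% higher, against 3.05% of all genes). At limma's unadjusted p under 0.05, 9 were higher and 5 lower. Median-of-ratios scaling gave 5 and 3 calls. cpr-1, a cathepsin B-like protease of the intestine, stood at 806, 1419 and 628 FPKM against 263, 223 and 337, with controls at 125.9 to 162 (1.72 ± 0.30). cpr-9 showed another order, at 323 to 396 FPKM in fluphenazine and 115 to 139 in starvation, both below the controls at 509 to 604 (1.51 ± 0.13). ctsa-1.2, a carboxypeptidase, was at 202, 122 and 179 FPKM against 33.8, 33.9 and 18 (2.54 ± 0.29), and cpr-3 was higher by 2.42 ± 0.27.

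Defence genes formed another large block of differences. Of 24 genes tied to the p38 immune pathway, limma called 8 higher and 0 lower (33.3% higher, against 3.05% of all genes), with 11 and 1 at an unadjusted p under 0.05. irg-4, an infection response gene, was at 63.7, 26.7 and 26.5 FPKM in fluphenazine, 0.445, 0.705 and 0.267 in starvation and 35.4 to 37.9 in controls (4.65 ± 0.53, limma adjusted p = 2.96e-05). The drug libraries lay around the fed level and the starved ones far below it. irg-5 had the same order, at 19.3, 7.93 and 32.3 FPKM against 0.0655, 0.0727 and 0.276, with controls at 9.51 to 11.8 (4.004 ± 0.46). irg-8 was at 83, 26.2 and 111 FPKM against 7.97, 3.87 and 9.19, and both lay under the controls at 112.7 to 321.6 (3.05 ± 0.44). tir-1, the SARM adaptor at the top of the pathway, was called (0.73 ± 0.20, adjusted p = 0.0384) although fluphenazine 4, at 22.6 FPKM, lay just under starvation 3, at 23. Without either of these libraries the call for tir-1 held.

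Of 94 antimicrobial peptide, lysozyme and saposin-like genes, 20 were higher and 6 lower (21.3% and 6.38%, against 3.05% and 3.25% of all genes). Their median was 0.38. Without fluphenazine 4 the count was 21 and 4 (against 4.13% and 2.9% of all genes) and the median 0.68. lys-7, a lysozyme, stood at 632, 519 and 839 FPKM against 27.5, 22.6 and 96.2, with controls at 93 to 127 around the level of starvation 3 (4.02 ± 0.45). cnc-6, a caenacin peptide gene, was at 18.8, 19.6 and 15.8 FPKM against 1.1, 0.727 and 0.689 (3.38 ± 0.19). fipr-26, related to fungus-induced peptides, was at 142, 27.1 and 152 FPKM against 8.85, 1.38 and 2.62, with fluphenazine 4 well under the other drug libraries (4.27 ± 0.71). spp-1, a saposin-like antibacterial protein, ran the other way at 105, 165 and 97.2 FPKM against 419, 552 and 465, with controls at 113 to 168 (−1.99 ± 0.21). fipr-1 was also lower, at 43.7, 8.83 and 23 FPKM against 197, 181 and 141 (−2.98 ± 0.38).

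C-type lectins, secreted sugar-binding proteins, had 19 higher and 10 lower members of 158 (12% and 6.33%, against 3.05% and 3.25% of all genes). Without fluphenazine 4 the counts were 28 and 10, where 4.13% of all genes were higher and 2.9% lower. clec-209 stood at 81.7, 76.9 and 82.7 FPKM in fluphenazine, 1.73, 2.44 and 1.36 in starvation and 110.6 to 122.5 in controls (4.86 ± 0.28); the symbol has a second identifier with nearly the same values. clec-41 was at 191, 108 and 219 FPKM against 16.3, 9.37 and 38 (3.12 ± 0.43). clec-60 was lower, at 6.52, 1.66 and 6.21 FPKM against 16, 11.7 and 62, and at most 0.311 in the controls (−2.19 ± 0.48). clec-82 was lower too, at 5.79 to 13.8 FPKM against 32.3 to 42.6 (−1.73 ± 0.24). Of 47 intracellular pathogen response genes 1 was higher (fbxa-182, 1.53 ± 0.30) and 1 lower (pals-31, −1.17 ± 0.20).

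**Figure D4:**
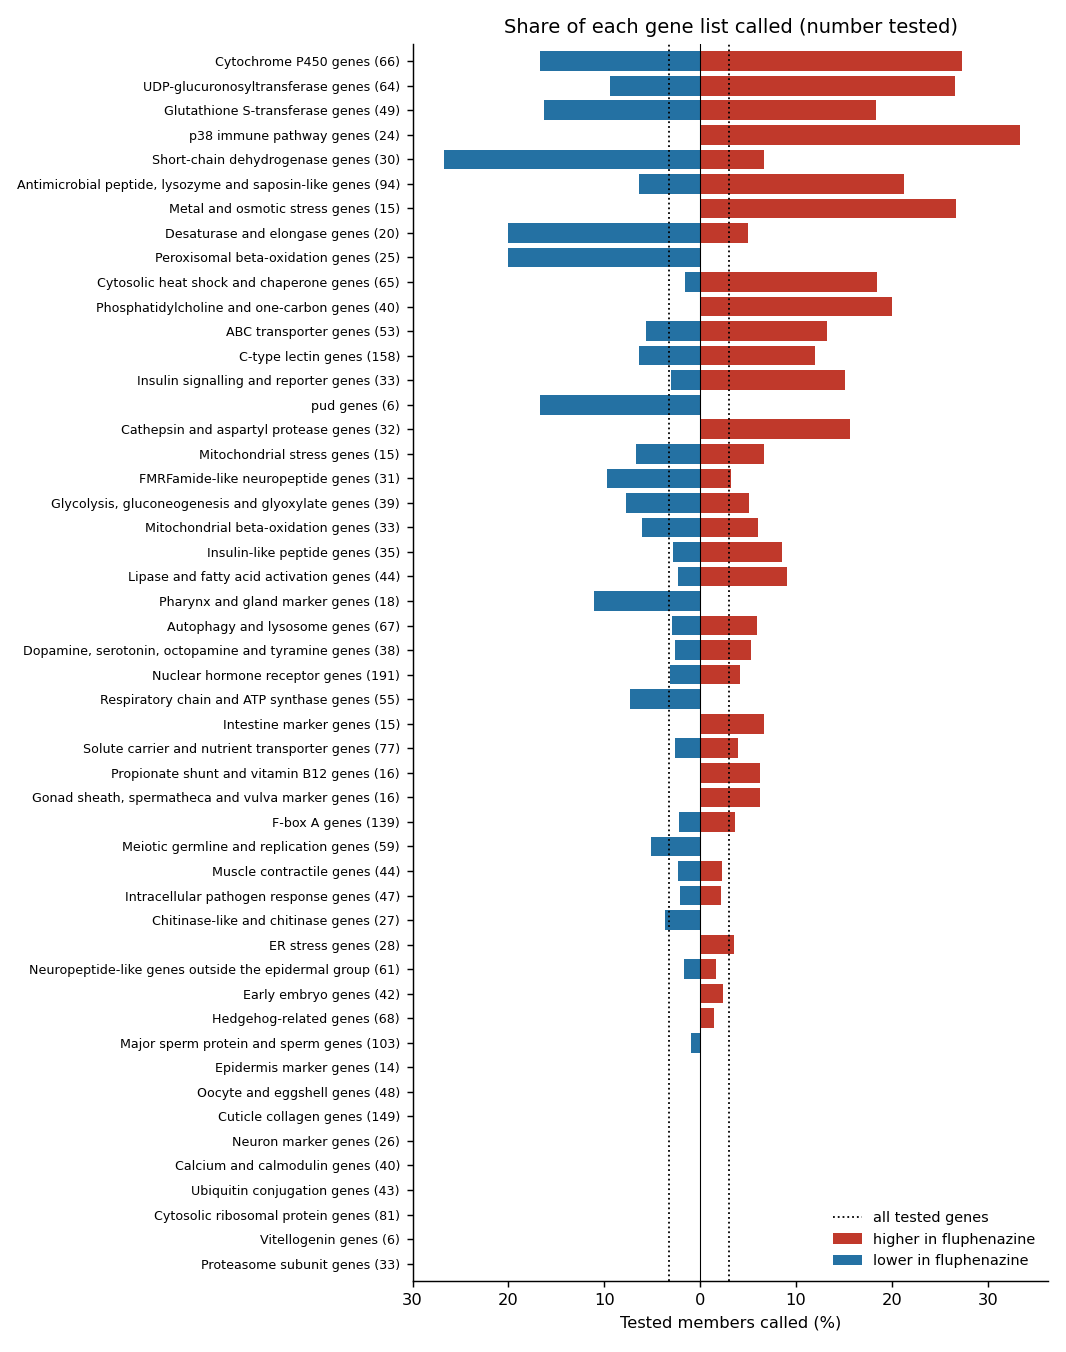
Share of the tested members of each of 50 gene lists called higher (red, right) or lower (blue, left) in fluphenazine than in starvation, with the number tested in brackets and dotted lines at the shares of all tested genes, 3.05% and 3.25%. The p38 immune pathway, cytochrome P450, metal and osmotic stress and UDP-glucuronosyltransferase lists reach farthest on the higher side, and proteasome, ribosome, collagen and oocyte lists have no called member.

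Protein folding genes differed mainly in the small heat shock cluster. Of 65 cytosolic heat shock and chaperone genes, 12 were higher and 1 lower (18.5% higher, against 3.05% of all genes). Their median was 0.16. hsp-16.2, a small heat shock protein, was at 10.8, 5.21 and 5.97 FPKM in fluphenazine, 0.447, 1.32 and 2.03 in starvation and 3.05 to 3.82 in controls (1.89 ± 0.25). hsp-16.48 was at 45.1, 31.7 and 28.9 FPKM against 5.1, 8.84 and 14.2, with controls at 22 to 26.1 (1.88 ± 0.24). The order drug, fed, starved was the same for hsp-16.1, whose 2 identifiers differed by 2.12 and 2.01; these genes are duplicated copies that may share reads. hsp-12.2 was the lower member (−0.77 ± 0.16). In the fit of the 6 libraries alone these hsp-16 genes were not called, with adjusted p of 0.074 to 0.18.

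Other arms of protein quality control had few or no called members in the fit of all libraries. The mitochondrial chaperone gene hsp-60 was called higher (0.48 ± 0.14, adjusted p = 0.0439), at 143, 139 and 130 FPKM against 113, 111 and 74.3, but not without fluphenazine 4 (adjusted p = 0.088) or starvation 3 (0.12). hsp-4, the endoplasmic reticulum BiP, was not called (0.11, interval −0.25 to 0.47). Of 28 ER stress genes limma called 1 higher and 0 lower (4 and 0 at an unadjusted p under 0.05). Without starvation 3 the count was 9 and 0, where 5.31% of all genes were higher and 3.52% lower. For 33 proteasome subunit genes limma called 0, and 1 was higher at an unadjusted p under 0.05, with a median of 0.11; the subunit gene rpn-6.1 was at 107, 153 and 105 FPKM against 112.1, 122 and 121 (0.02, interval −0.27 to 0.30). For 43 ubiquitin conjugation genes limma called 0 (5 higher and 4 lower at an unadjusted p under 0.05). For 81 cytosolic ribosomal protein genes it also called 0 (37 lower at an unadjusted p under 0.05), with a median of −0.19 that became 0.03 with quantile normalization.

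Several metal-responsive genes were higher in fluphenazine. Of 15 metal and osmotic stress genes limma called 4 higher and 0 lower (26.7% higher, against 3.05% of all genes; 6 and 1 at an unadjusted p under 0.05), with a median of 0.82. cdr-4, a cadmium-responsive gene, was at 96.1, 86.8 and 81.9 FPKM against 24.3, 18.4 and 19.8, with controls at 20.1 to 34.7 (2.04 ± 0.16, limma adjusted p = 6.64e-07). cdr-1 was at 9.08, 9.33 and 8.39 FPKM against 0.514, 0.666 and 1.44 (2.44 ± 0.26), and numr-1 was higher by 2.29 ± 0.32. The metallothionein gene mtl-1 overlapped between the groups, at 141, 54.1 and 79 FPKM against 28.5, 28.6 and 84.5 (1.03, interval −0.00053 to 2.05).

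Phospholipid and one-carbon genes had 8 higher and 0 lower members of 40 by limma (20% higher, against 3.05% of all genes). At limma's unadjusted p under 0.05 the counts were 15 and 1, and the median was 0.23. gba-4, a glucosylceramidase gene, was at 19.6, 23.9 and 23.6 FPKM against 6.77, 5.41 and 5.55, both under controls at 45.5 to 55.3 (1.76 ± 0.22). pcyt-1, the rate-setting enzyme of phosphatidylcholine synthesis, kept the same order, at 24.8, 32 and 24.7 FPKM against 13.3, 12.7 and 16.4, with controls at 60.8 to 64.1 (0.89 ± 0.12). sptl-2, a subunit of serine palmitoyltransferase, was higher by 1.39 ± 0.23 and cbs-1, a cystathionine β-synthase, by 0.87 ± 0.19.

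Among insulin genes, ins-7, an agonist peptide of the DAF-2 receptor, stood at 74.9, 77.9 and 82.2 FPKM in fluphenazine and 23.6, 16.6 and 14 in starvation, with controls at 13.5 to 20.4 (2.09 ± 0.21). The insulin-like peptide list had 3 higher and 1 lower of 35 (8.57% and 2.86%). Insulin signalling and reporter genes had 5 higher and 1 lower of 33 (15.2% and 3.03%, against 3.05% and 3.25% of all genes). The higher ones included dod-19 (3.23 ± 0.50), dod-23 (2.80 ± 0.51), dod-22 (2.62 ± 0.53) and dod-24 (2.13 ± 0.33), genes named for lying downstream of DAF-16, and the lower one was ist-1, an insulin receptor substrate (−0.94 ± 0.16). dod-23 depended in size on starvation 3, which held 3.46 FPKM beside 25.7 and 33 in the other starved libraries; without it the difference was 1.88.

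Genes of the drug's textbook targets were mostly not called. Of 38 genes of dopamine, serotonin, octopamine and tyramine signalling, 2 were higher and 1 lower, near the share of all genes. The dopamine receptor genes dop-1 (−0.40, interval −0.91 to 0.12) and dop-3 (−0.25, interval −0.64 to 0.15) were not called, nor were the dopamine synthesis gene cat-2 (−0.17, interval −0.59 to 0.25), the dopamine transporter gene dat-1 (−0.23, interval −0.75 to 0.28) or the serotonin synthesis gene tph-1 (−0.12, interval −0.42 to 0.19). All 5 were low in whole worms, at most 9.32 FPKM in any of the 6 libraries. cat-4, which makes the cofactor of both amine pathways, was lower at 93.6, 92.8 and 87.3 FPKM against 149, 154 and 137 (−0.68 ± 0.14). comt-4, of the catechol O-methyltransferase family, was higher at 10.54, 3.61 and 13.6 FPKM against 0.896, 1.1 and 0.523 (2.33 ± 0.31). For 40 calcium and calmodulin genes limma called 0 (2 higher and 7 lower at an unadjusted p under 0.05), with a median of −0.16, and 7 higher with both libraries left out (17.5%, near the 13.4% of all genes in that fit).

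Of 31 FMRFamide-like neuropeptide genes 1 was higher and 3 lower (3.23% and 9.68%, against 3.05% and 3.25% of all genes), with 7 lower at an unadjusted p under 0.05 and a median of −0.32. Of 61 neuropeptide-like genes 1 was higher and 1 lower (1.64% each). flp-3 was at 42.8, 33.5 and 44.7 FPKM against 74.4, 67.1 and 99.5 (−0.97 ± 0.15). flp-8 was at 112.4, 69.3 and 111.8 FPKM against 46.7, 40.1 and 64.5 (0.94 ± 0.19), and nlp-12, a cholecystokinin-like peptide gene, was lower (−1.27 ± 0.25). Of 26 neuron markers limma called 0 (2 higher and 2 lower at an unadjusted p under 0.05). Their mean level was lowest in fluphenazine 4, at 3.50 on the log2(FPKM + 1) scale beside 4.13 and 4.21, and highest in starvation 3, at 4.35 beside 3.97 and 3.90.

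Reproductive genes varied widely within both groups. The 6 vitellogenins, the yolk proteins made in the intestine, summed to 1384, 4364 and 679 FPKM in fluphenazine 2, 4 and 9 and to 1710, 2506 and 12.2 in starvation 1, 2 and 3, against 6896 to 8501 in controls. Fluphenazine 4 was thus the highest treated library and starvation 3 almost empty of yolk transcripts. The list's median difference was 1.97, with 0 of 6 called by limma and 3 higher at an unadjusted p under 0.05. It fell to 1.26 without fluphenazine 4 and 0.65 without starvation 3, and was −0.31 with both left out. vit-2 was at 690, 2203 and 386 FPKM against 1050, 1562 and 6.28 (1.87, interval −0.93 to 4.68); with both left out it was called lower, at −1.31 (adjusted p = 0.029). rme-2, the yolk receptor of oocytes, was at 83.9, 258 and 46.4 FPKM against 53.6, 86.4 and 7.77 (1.55, interval 0.14 to 2.95, adjusted p = 0.219).

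Oocyte and eggshell genes followed the yolk genes. Their median was 1.16, with 0 of 48 called by limma and 19 higher at an unadjusted p under 0.05, and −0.13 with both libraries left out. The oocyte maturation gene oma-2 was at 74.8, 291.7 and 37.9 FPKM against 35.3, 60.3 and 8.84 (1.77, interval 0.39 to 3.15). Sperm genes summed to 12117 to 17783 FPKM in fluphenazine, to 26710 and 30714 in starvation 1 and 2 and to 1911 in starvation 3. In controls 4, 6 and 7 the sums were 8287, 9615 and 23738 FPKM. The median difference of the sperm genes was 0.33 with 1 of 103 lower, and −0.91 without starvation 3. Meiotic germline and replication genes had 0 higher and 3 lower of 59 by limma (3 and 5 at an unadjusted p under 0.05).

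**Figure D5:**
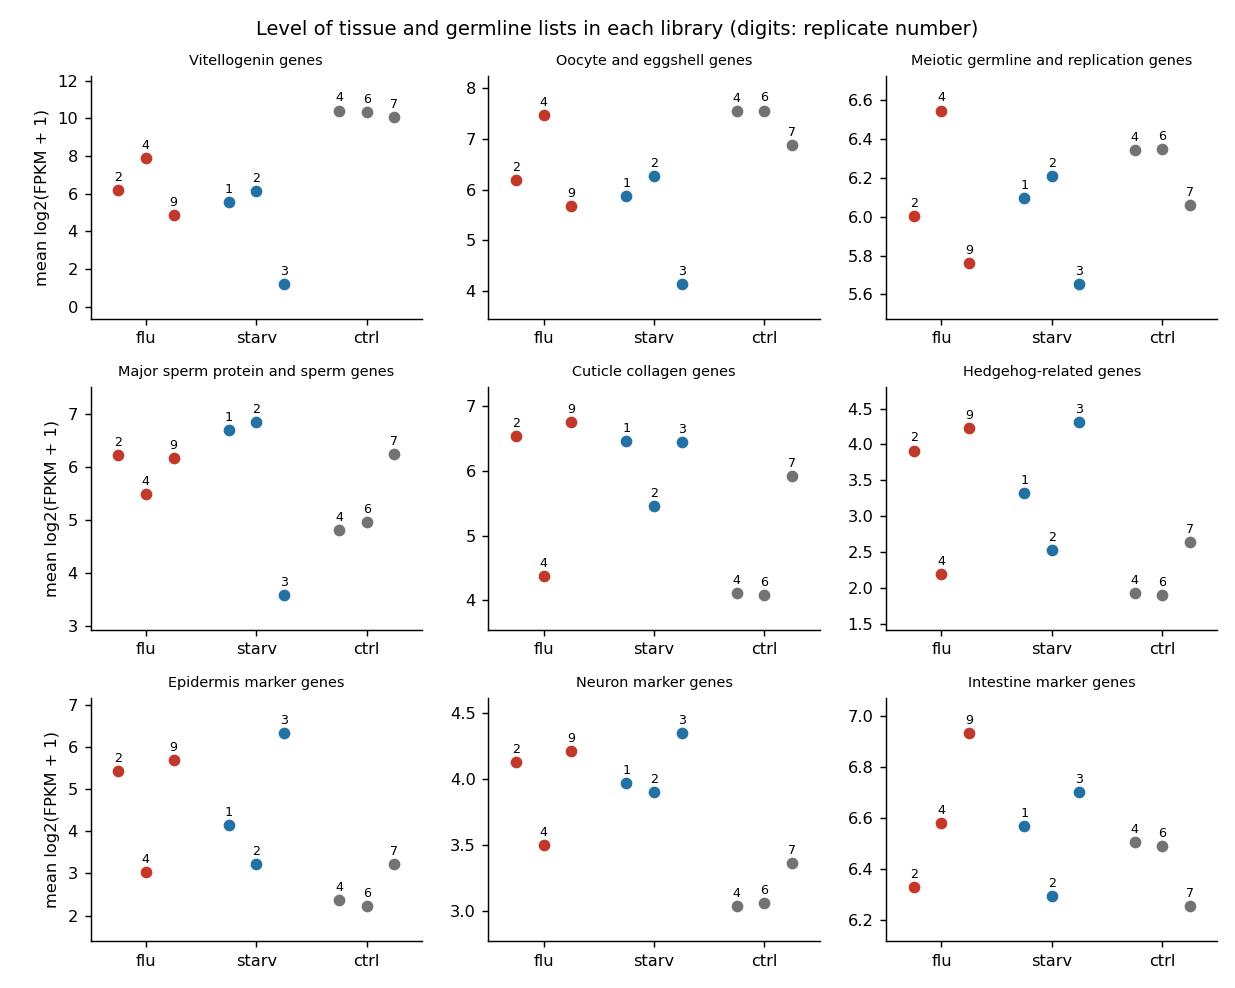
Mean log2(FPKM + 1) over the tested members of 9 tissue and germline lists in each fluphenazine, starvation and control library; digits give the replicate number. Fluphenazine 4 lies near controls 4 and 6 in cuticle collagen and oocyte genes, with control 7 apart from them. Starvation 3 lies apart from starvation 1 and 2 in yolk, oocyte, sperm and epidermis genes.

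Cuticle and epidermis levels also differed within both groups. Mean levels of the 149 cuticle collagens were 6.54, 4.38 and 6.76 on the log2(FPKM + 1) scale in fluphenazine 2, 4 and 9 and 6.47, 5.46 and 6.46 in starvation 1, 2 and 3. Fluphenazine 4 and starvation 2 were thus the lowest of their groups, and starvation 3 was level with starvation 1. Controls 4, 6 and 7 were at 4.11, 4.08 and 5.92. Limma called 0 of the collagens (1 higher and 4 lower at an unadjusted p under 0.05), and with fluphenazine 4 and starvation 3 left out it called 21 higher and 14 lower (14.1% and 9.4%, against 13.4% and 4.81% of all genes in that fit). Epidermis markers were at 5.43, 3.03 and 5.69 against 4.13, 3.23 and 6.33, and went from 0 of 14 called (also 0 at an unadjusted p under 0.05) to 9 higher (64.3%) in that fit. Hedgehog-related genes, which are expressed mostly in the epidermis, went from 1 to 31 higher of 68 (45.6%). The exception called with all libraries was ptr-22, a patched-related gene, at 9.96, 13.8 and 11.3 FPKM against 0.642, 0.397 and 0.664 (3.01 ± 0.23). Intestine markers were close in level, with means of 6.33 to 6.94 in fluphenazine and 6.30 to 6.70 in starvation, and cpr-1 was the 1 called of 15. In all 6 libraries col-171, col-37 and col-78 were listed at 0, and no epidermis, intestine or hedgehog-related gene was. Whether worm stage or tissue makeup had a part in these differences was not tested.

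Other genes were among the 15 largest differences in each direction, all but the transferase gene gst-30 outside the lists above. sysm-1 was at 34.9, 73.6 and 28.3 FPKM in fluphenazine and 0, 0.366 and 0.347 in starvation, with controls at 24.8 to 51.8, so the drug libraries lay around the fed level (5.13 ± 0.47). spig-5 was at 237, 146 and 245 FPKM against 15.9, 7.49 and 12.2, above controls at 2.52 to 4.97 in both (4.05 ± 0.27). clx-1 reached 32.7, 4.37 and 14 FPKM against at most 0.122 in starvation and was listed at 0 in all 3 controls (3.71 ± 0.40). On the lower side, srh-2, a serpentine chemoreceptor gene, was at 2.77, 3.25 and 2.75 FPKM against 12.7, 21.3 and 10.9, with at most 0.106 in controls (−1.97 ± 0.26). The paired neighbours pudl-1 (−2.12 ± 0.35) and pudl-2 (−2.11 ± 0.32), the transthyretin-related gene ttr-22 (−2.05 ± 0.40), dlhd-1 (−2.03 ± 0.41) and gst-30 (−2.18 ± 0.37) were lower as well. Of the 15 higher genes 11 were also called when only the 6 libraries were fitted, and of the 15 lower genes 4.

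The remaining lists had few called members; for all genes the shares were 3.05% higher and 3.25% lower. Solute carriers and nutrient transporters had 3 higher and 2 lower of 77, among them the SWEET sugar transporter genes swt-6 (2.35 ± 0.38) and swt-7 (1.19 ± 0.18) on the higher side and slc-36.5 (−1.03 ± 0.16) on the lower. F-box A genes, substrate adaptors of ubiquitin ligases, had 5 higher and 3 lower of 139. Respiratory chain and ATP synthase genes had 0 higher and 4 lower of 55 by limma (7.27% lower; 2 and 19 at an unadjusted p under 0.05), with a median of −0.13; the Rieske protein gene isp-1 was at 391, 371 and 368 FPKM against 438, 467 and 471 (−0.28 ± 0.06). Muscle contractile genes had 1 higher and 1 lower of 44, early embryo genes 1 higher of 42, and pharynx and gland markers 2 lower of 18 (11.1%), with phat-3 at 29.7, 28.6 and 24.8 FPKM against 48.7, 58.6 and 48 (−0.88 ± 0.11). Gonad sheath, spermatheca and vulva markers had 1 higher of 16 (plst-1, 0.64 ± 0.13). The propionate shunt list had 1 higher of 16, the chitinase list 1 lower of 27, the mitochondrial stress list 1 higher and 1 lower of 15, and the pud list 1 lower of 6.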

How the data were processed

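Whole-worm RNA of 21 libraries was measured by RNA-seq; per the labels, TruSeq stranded mRNA libraries were made from total RNA. The deposited values are FPKM per gene, made by the authors, and the submitters' processing notes name CASAVA and Cufflinks without a version. The aligner, genome build, annotation and filters are not given in the sources used here, and coordinates and sequences are left out. Of 46254 gene IDs, 43200 matched a symbol in a name table. Genes with at least 1 FPKM in 3 or more of the 21 libraries were kept (17492). All 21 libraries entered 1 fit of limma 3.58.1 (R 4.3.3) on log2(FPKM + 1), with 1 mean per group, no covariate and eBayes with trend, 14 residual and 2.01 prior degrees of freedom. The contrast was fluphenazine minus starvation, two-sided, with Benjamini-Hochberg adjustment over all tested genes. Intervals are 95% and unadjusted.

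Named genes are the 15 largest called differences in each direction that have a gene name, at least 5 FPKM in either group, no overlap between groups and a call held without each library in turn, then up to 4 and 2 members of each list by the same conditions, then a fixed set; 145 genes in all, of which a part is described. The members and lists were chosen with earlier results of these data known, and 2 lists were corrected for members that did not belong by name. Lists are described by counts and medians, without a test. On simulated data of 17492 genes with 50 changed at each size, the fit called 20% of 1.5-fold, 40% of 2-fold, 82% of 4-fold and 88% of 8-fold changes, with 1 false call. There each gene's residuals were shuffled over all 21 libraries, so every simulated group had a like spread. In the data, fluphenazine and starvation libraries had a lower mean r with their own group (0.843 to 0.941) than libraries of the other treatments (0.959 to 0.988). The controls were at 0.938 to 0.963. The simulation therefore does not give the rate of false calls in this contrast. An exact 0 can be a failed estimate: within the 6 libraries, 38 genes with a median over 20 FPKM hold 54 zeros.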

Additional observations from a re-analysis of the deposited data

How the results depend on the processing

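The count of 1101 called genes became 98 when only the 6 libraries were fitted, 6151 with a weight for each library and 3187 with fluphenazine 4 and starvation 3 both left out. The first rests on fewer residual degrees of freedom by construction, and its spread comes from the fluphenazine and starvation groups alone. Their libraries had a lower mean r with their own group (0.843 to 0.941) than those of the other treatments (0.959 to 0.988). The controls were at 0.938 to 0.963, with control 7 just under fluphenazine 2. The fit of all libraries can therefore understate the spread of this contrast. How much each of these lowered the count was not tested, nor was the cause of the other counts. Leaving out 1 library at a time gave 831 to 1544. The lowest count came without fluphenazine 2 and the highest without starvation 3. A constant of 0.1 FPKM, no filter (22664 genes), a filter at 5 FPKM (14088 genes), median-of-ratios scaling, quantile normalization and zeros in abundant genes set to missing gave 994 to 1384 calls. With both libraries left out 897 of the 1101 genes were called, and in the fit of the 6 libraries 93. Of the 122 named genes called, 94 lost the call in the fit of the 6 libraries. At most 4 lost it in any other setting, and 0 changed direction. The filter at 5 FPKM left 5 of them untested. Apart from the fixed set, these genes were chosen for a call held without each library in turn. Their calls in the fits that left out 1 library were thus largely fixed in advance. Of all 1101 calls, 635 held in that way. Of the 15 largest differences in each direction, 11 higher and 4 lower ones were called in the fit of the 6 libraries. No paired analysis was possible because the fluphenazine and starvation libraries share only replicate number 2.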

Other observations

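These families and genes were picked after their values were seen. The nspc family, nematode-specific peptides of unknown role encoded on X, had all 18 tested identifiers lower in fluphenazine, with a median difference of −1.21 (−1.83 to −0.90). Their median level was 70.6, 115 and 57.0 FPKM in fluphenazine 2, 4 and 9, 170, 178 and 164 in starvation and 90.4 to 100.9 in controls. The controls were placed differently within the family: nspc-2 was at 23.9 to 45 FPKM in fluphenazine, 58.3 to 86.5 in starvation and 86 to 89.7 in controls, and nspc-16 at 116 to 146, 241 to 337 and 66.9 to 86.7. All 18 were also lower without fluphenazine 4, without starvation 3 and under both scalings, and 1 was called in the fit of the 6 libraries. The copies are near-identical and may share reads, so they are not 18 independent measurements. Of 12 lec genes (galectins) 5 were higher (41.7%), and of 8 spig genes 3 (37.5%), against 3.05% of all genes.

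Several genes with only sequence names stood among the largest differences. C01G12.5 was at 490, 349 and 457 FPKM in fluphenazine and at most 0.0977 in starvation (8.66 ± 0.15, limma adjusted p = 2.77e-16). R05D8.9 was at 131, 68.5 and 109 FPKM against 0.276, 0.102 and 0.194 (6.40 ± 0.20), and C01G10.4 at 311, 338 and 299 against 3.58, 1.29 and 12.3 (5.93 ± 0.51). F59A7.11 was at 49.7, 34.2 and 50.3 FPKM and listed at 0 in all 3 starvation and all 3 control libraries. W06H8.2 was lower, at 2.16 to 2.19 FPKM against 18.7 to 43.8 (−3.09 ± 0.23). ZK686.3 was listed at 0 in all 3 fluphenazine libraries and in 2 libraries of other groups, against 139 to 203 FPKM in starvation; with such zeros set to missing it has no value.

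Runs of at least 4 tested neighbours called the same way numbered 6 higher and 8 lower. Higher runs included cyp-35A5, cyp-35B1, cyp-35B2 and cyp-35B3 on V, and ugt-67, ugt-8, ugt-14 and ugt-13 on V. Another held fipr-22, fipr-23 and fipr-24 with C37A5 genes on I. Copies that may share reads made up some runs, such as nspc genes (lower, X) and hsp-16.1 and hsp-16.48 identifiers (higher, V). Some members, such as F55G11.2 and ctl-2, did not hold their call in every fit that left out 1 library. Whether runs were more common than the share of genes called would give was not tested. Chromosome V held 387 called of 3665 tested genes (10.6%), against 3.87% on I and 6.49% on IV, the next highest.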
